A study of Homo sapiens with 28 samples.

Results

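The regions described here are genomic sites at which the forkhead transcription factor FOXF1 had a peak both in senescent and in proliferating fibroblasts. Peaks on chromosomes 1 to 22 and X of the 4 FOXF1 lists (Sen replicates 1 and 2, Pro replicates 1 and 2) were joined into regions wherever they overlapped by at least 1 bp. Members were chosen by these measured FOXF1 peak calls alone: a region was kept when each of the 4 lists held a peak in it. This gave 2047 members of 45464 FOXF1 regions (4.50%). For comparison, 5948 regions had a FOXF1 peak in both Sen lists and neither Pro list (called gained below), and 159 had one in both Pro lists and neither Sen list.

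The study profiled IMR-90 ER:Ras cells by CUT&RUN, in which an antibody guides a protein A/G and micrococcal nuclease fusion that cuts the DNA beside its target. IMR-90 is a line of human fetal lung fibroblasts, and ER:Ras is an oncogenic Ras that 4-hydroxytamoxifen (4-OHT) switches on, driving the cells into oncogene-induced senescence. The 28 libraries each gave 1 peak list, with 8 for FOXF1, 6 for p-c-JUN (the phosphorylated form of c-JUN) and 14 for acetylation of lysine 27 on histone H3 (H3K27ac). The groups were senescent cells transfected with siFOXF1/2 (all 3 antibodies), with sip300/CBP (H3K27ac) or with the cJUN/JUND knockdown (H3K27ac and FOXF1), untargeted Sen cells, and proliferating Pro cells. Each group and antibody had 2 libraries, except H3K27ac in Sen cells, which had replicates 1 to 4, and sip300/CBP had a Sen control of its own with 2 libraries. The protocol gave 100 nM 4-OHT for 6 days. The libraries titled Pro carried the same 4-OHT and senescent cell type tags as those titled Sen, so the Pro state rests on the titles. The knockdown titled cJUN/JUND carried a treatment tag that also named JUNB. Every group shares the ER:Ras transgene, and the sources used here say neither what drives it nor whether the replicates were grown apart. The p-values here thus cover the spread between these libraries alone, which may be technical.

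Forkhead factors bind DNA through a winged-helix domain, and FOXF1 is known for its role in the mesenchyme of the developing lung, where it is expressed together with its relative FOXF2. c-JUN is a subunit of AP-1, a leucine zipper dimer that is phosphorylated under stress signalling and known to occupy enhancers in senescent fibroblasts. H3K27ac is deposited by the acetyltransferases p300 and CBP and marks active promoters and enhancers. The genes at the members were not analysed here, and regions are given by their hg19 coordinates, counted from 1.

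List lengths differed widely, and they bear on every share below. The FOXF1 lists held 186 and 133 peaks after siFOXF1/2, 378 and 883 after cJUN/JUND knockdown, 13603 and 40537 in Sen and 3441 and 11061 in Pro cells. The p-c-JUN lists held 75005 and 86110 peaks after siFOXF1/2, 70177 and 93443 in Sen and 24808 and 32136 in Pro cells. The H3K27ac lists held 26694 to 89329 peaks, except for sip300/CBP (4186 and 1549) and its Sen control (8234 and 2046). Read depth is unknown for every library. In bulk libraries, fewer cells carrying a bound site and less binding per cell cannot be told apart.

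The rule used the FOXF1 peaks of the 4 lists, so their strength is a description. The fold enrichment at the summit, the authors' own value over local background, had at members a lowest, median and highest value of 3.16, 7.03 and 29.8 in Sen replicate 1. It had 3.01, 8.25 and 31.2 in Sen replicate 2, 3.42, 6.19 and 24.9 in Pro replicate 1, and 3.52, 7.72 and 29.4 in Pro replicate 2. The medians of the whole lists were 5.50 and 5.19 in Sen and 5.65 and 5.59 in Pro cells, below the members' median in each of the 4. The median member stood at the 80.8 and 91.9 percentile of the Sen lists and at the 63.7 and 86.2 percentile of the Pro lists. Members held 15.2% and 5.08% of the Sen peaks, and 59.8% and 18.6% of the Pro peaks. The shortest list, Pro replicate 1, therefore set membership most often: the weakest of a member's 4 peaks lay there for 1151 members, against 569 for Sen replicate 1, 226 for Pro replicate 2 and 101 for Sen replicate 2.

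At the edge of the rule, the 100 members with the lowest weakest peak had median folds of 5.37 and 6.95 in the Sen lists and 4.21 and 6.10 in the Pro lists. The 3114 regions that lacked just the peak in Pro replicate 1 had median folds of 5.92 and 7.01 in the Sen lists and 5.78 in Pro replicate 2. The fold of a member was more alike within a state than across states. Over the 2047 members, Spearman's rho was 0.65 between the Sen lists, 0.59 between the Pro lists and 0.41 to 0.50 between a Sen and a Pro list, a description over regions that share their libraries.

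Most members had no other member within 10 kb. Their median width was 651 bp (221 to 2530 bp), against 482 bp for gained regions, and the nearest other member lay at a median distance of 247 kb. A further member within 10 kb was found for 91 members (4.45%), in 43 groups of at most 4. The same spacing was not measured for gained or all FOXF1 regions, so it is not read as scatter or clustering. Members made up 3.90% to 6.68% of the FOXF1 regions on each autosome, with chromosome 19 highest, and 1.24% on the X chromosome.

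A subset of the members stood apart and is given before the other results. FOXF1 peaks remained at 170 members (8.30%) in at least 1 of the 4 FOXF1 lists made after a knockdown, a call that held for 1.46% of all FOXF1 regions. After siFOXF1/2, 56 and 51 members had a FOXF1 peak (2.74% and 2.49%), and 47 had one in both lists, against 0.145% of all FOXF1 regions. The peaks of the siFOXF1/2 lists were narrower, with medians of 108 and 103 bp, against 285 and 343 bp in the Sen lists, and the part of peak calling in these counts was not tested. After cJUN/JUND knockdown the numbers were 111 and 121 members (5.42% and 5.91%), 66 of them in both lists, against 0.317% of all FOXF1 regions. A peak in all 4 lists was held by 45 members, and 12 held one in both cJUN/JUND lists and in no siFOXF1/2 list. Of the 166 members with a peak in at least 1 cJUN/JUND list, 110 had none in a siFOXF1/2 list, and 60 members had a peak in at least 1 siFOXF1/2 list. These overlaps between lists are not given over all FOXF1 regions, so they are not read as a trait of members. The cJUN/JUND lists belong to a later block of deposited records than the Sen lists that define the members, so the knockdown cannot be told apart from the deposit.

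Some of these 170 members carried peaks of every antibody, and some lay near long stretches without peaks. The longest stretch of each chromosome that was free of peaks of every library lay within 2 Mb of 48 of them (28.2%), against 20 of the other 1877 members (1.07%). H3K27ac was listed in all 14 libraries at 13 members, all of them among the 170, against 21 of all 45464 FOXF1 regions. In Pro cells, however, it covered fewer of the 170 (78.8% and 68.8%) than of the other 1877 members (93.8% and 93.0%). The order was the same in Sen replicates 1 and 2 and after siFOXF1/2, and the reverse in the remaining H3K27ac libraries. The member with the best FOXF1 ranks, chr1:121484201-121485430, had a peak in all 28 lists with folds between 10.9 and 20.9, whatever the antibody. Its FOXF1 fold was 10.9 and 11.7 after siFOXF1/2, 16.5 and 15.7 in Sen and 15.5 and 17.4 in Pro cells. The widest of the leading members, chr6:58776799-58779328, had folds of 5.72 to 8.06 over the same 28 lists. All 10 members that led the FOXF1 ranks were among the 170, 6 of them with a peak in all 28 lists. The part of these sites in each result was measured by leaving them out, and the comparisons below are given without them where that changed a direction or moved a value by over 1.5 times.

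**Figure D1:**
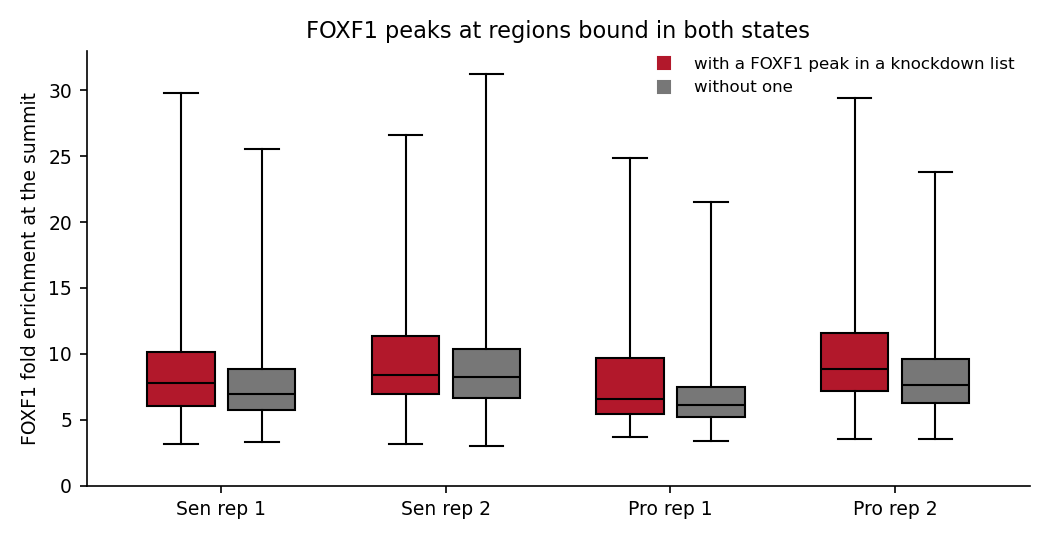
FOXF1 fold enrichment at the peak summit (y axis, no unit) in the 2 Sen and 2 Pro lists (x axis). In each pair of boxes the red one holds the 170 members with a FOXF1 peak in a knockdown list and the grey one the other 1877. Boxes span the quartiles with the median as a line, and whiskers reach the lowest and highest value. The boxes of each pair overlap, and highest values run from 24.9 to 29.8 among the 170 members and from 21.5 to 31.2 among the other 1877.

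The 10 leading members without a knockdown-list peak, a list added after those values were seen, were picked by their rank in the 4 Sen and Pro FOXF1 lists, so that strong FOXF1 peaks in both states follow from the choice. Their other marks do not enter it. The highest-ranked, chr13:50432431-50433074, had FOXF1 folds of 19.7 and 20.4 in Sen and 21.5 and 19.3 in Pro cells. Its p-c-JUN folds were 19.9 and 17.4 after siFOXF1/2, 17.0 and 11.6 in Sen and 19.0 and 20.0 in Pro cells, present in all 6 lists. H3K27ac there was weaker, with folds of 3.31 to 4.68 in the 7 lists that held it. The next, chr14:55618972-55619526, had FOXF1 folds of 19.2 and 21.8 in Sen and 15.0 and 18.3 in Pro cells, again with p-c-JUN in all 6 lists. Of the 10, 7 had p-c-JUN in all 6 lists. The exceptions were chr21:30144130-30144802 with 5, chr7:139614630-139615484 with 3 and chr19:50316544-50316933 with 2.

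p-c-JUN was present at most members in both states. A p-c-JUN peak overlapped 88.7% and 93.2% of members in Sen cells, against 75.0% and 80.8% in Pro cells. The groups did not overlap, and the mean difference was 13.0 ± 3.64 percentage points (SE, n = 2 and 2), with p = 0.333 in an exact two-sided permutation test over libraries, the smallest p that 2 against 2 allows. Over gained regions the same difference was 41.3 points, and over all FOXF1 regions it was 29.8 points. By lists, 1347 members (65.8%) had p-c-JUN in all 6 libraries, against 24.6% of all FOXF1 regions, and 55 (2.69%) had it in none, against 25.0%. Both Sen lists held 1775 members (86.7%), against 54.4% of all FOXF1 regions, and both Pro lists held 1459 (71.3%), against 26.5%.

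The direction of this difference turned round when lists of equal length were compared. With each list limited to its 24808 best peaks by −log10 q, the length of the shortest, p-c-JUN covered 61.5% and 60.4% of members in Sen and 75.0% and 75.0% in Pro cells. The difference was then −14.1 points (exact permutation p = 0.333), while gained regions stayed higher in Sen cells, by 9.90 points, and all FOXF1 regions differed by 0.85 points. The reversal was present from the strongest peaks on. With each list limited to its best 5000 peaks, p-c-JUN covered 25.1% and 23.7% of members in Sen, against 35.0% and 35.9% in Pro cells. Gained regions showed the opposite order at that depth, with 12.5% and 13.0% in Sen and 7.77% and 8.02% in Pro cells. Without the 170 members the equal-length difference was −13.1 points. At equal list length, more members therefore held a top-ranked p-c-JUN peak in Pro than in Sen cells. This is an order within lists. The full Sen lists rank more sites, so it does not measure the strength of p-c-JUN between the states. The higher share in the full Sen lists came from peaks farther down those lists.

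**Figure D2:**
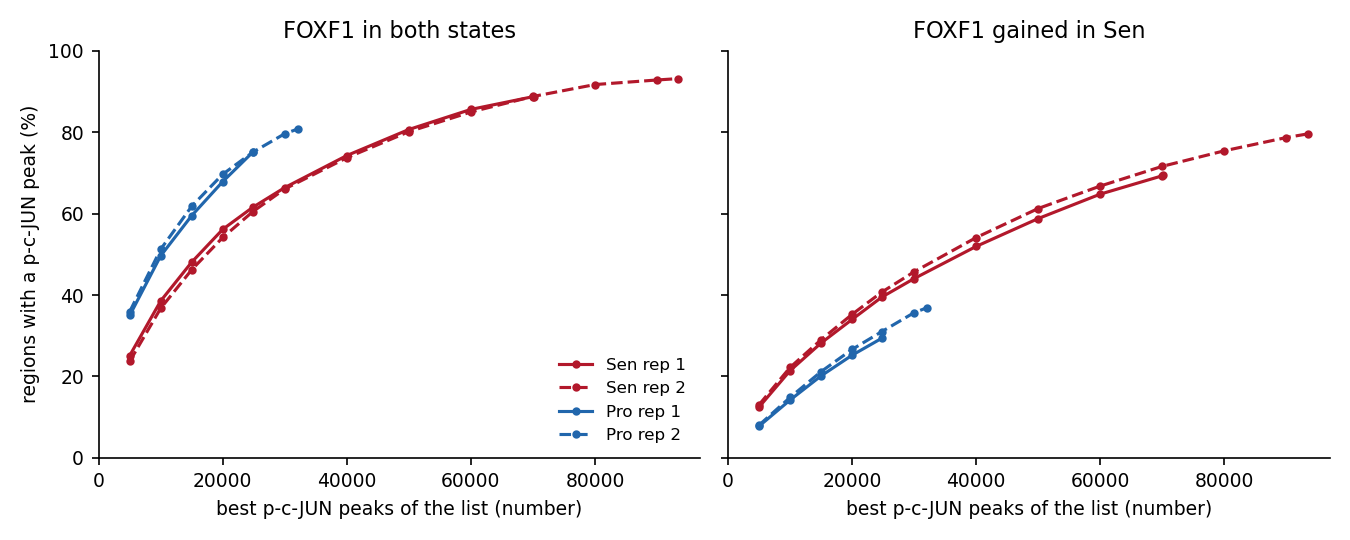
Share of regions with a p-c-JUN peak (y axis, percent) when each list is limited to its best peaks (x axis, number of peaks), for members (left panel) and gained FOXF1 regions (right panel). Red lines are Sen and blue lines Pro libraries, solid for replicate 1 and dashed for replicate 2. At 24808 peaks the Sen lines stand at 61.5% and 60.4% below the Pro lines at 75.0% in the left panel, and above them in the right panel.

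The p-c-JUN peaks at members were strong ones within their lists in every library. Their median fold was 8.29 and 8.31 after siFOXF1/2, 8.42 and 8.67 in Sen and 7.85 and 8.51 in Pro cells, while the medians of the whole lists were 5.82 to 6.05. Members with a higher FOXF1 fold in Sen replicate 1 more often had p-c-JUN in that state. In Sen replicate 1 the share was 83.7% in the lowest of 5 equal classes of members by FOXF1 fold and 93.2% in the highest. In Pro replicate 1 the share was 75.9% in the lowest class, 67.5% in the middle one and 82.9% in the highest.

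p-c-JUN was called gained at a member when both Sen lists and neither Pro list held it. This was so at 152 members (7.43%), against 19.2% of all FOXF1 regions, and lost by the reverse rule at 7 (0.342%), against 0.242%. The low count of gains goes with how few members lacked p-c-JUN in Pro cells. Of the 316 members with it in neither Pro list, 152 (48.1%) had it in both Sen lists, close to the 47.6% among gained regions, and 31.6% among all FOXF1 regions. The leading example, chr3:190953383-190954554, had p-c-JUN folds of 10.4 and 10.4 after siFOXF1/2 and 11.2 and 12.7 in Sen cells and no p-c-JUN peak in the Pro lists. FOXF1 there had folds of 5.60 and 5.31 in Sen and 8.15 and 4.95 in Pro cells. At chr7:94190906-94191957, another, FOXF1 folds were 12.6 and 13.1 in Sen and 6.47 and 5.10 in Pro cells, with p-c-JUN folds of 10.7 and 14.2 in Sen cells.

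Within each p-c-JUN library, members were covered more often than gained regions. The difference between the shares averaged 28.0 ± 13.4 points (SD over 6 libraries, 13.6 to 45.6) and was positive in 6 of 6, with p = 0.0312 in an exact sign-flip permutation test, the smallest p that 6 libraries allow. Within the 5 classes of FOXF1 fold in Sen replicate 1 it averaged 27.8 points. Members are wider than gained regions and were chosen for a peak in more lists, and the part of width in this difference was not tested. The gap was 22.8 and 22.7 points after siFOXF1/2, 19.3 and 13.6 in Sen and 45.6 and 43.9 in Pro cells. The Sen gap minus the Pro gap was −28.3 ± 3.01 points (SE, n = 2 and 2), and −24.0 points at equal list length, each without overlap of the groups and each with an exact permutation p of 0.333. Members and gained regions were set apart by FOXF1 in the Pro lists alone, as both have it in both Sen lists. This contrast is thus tied to the choice of regions, and the part of that choice was not tested.

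**Figure D3:**
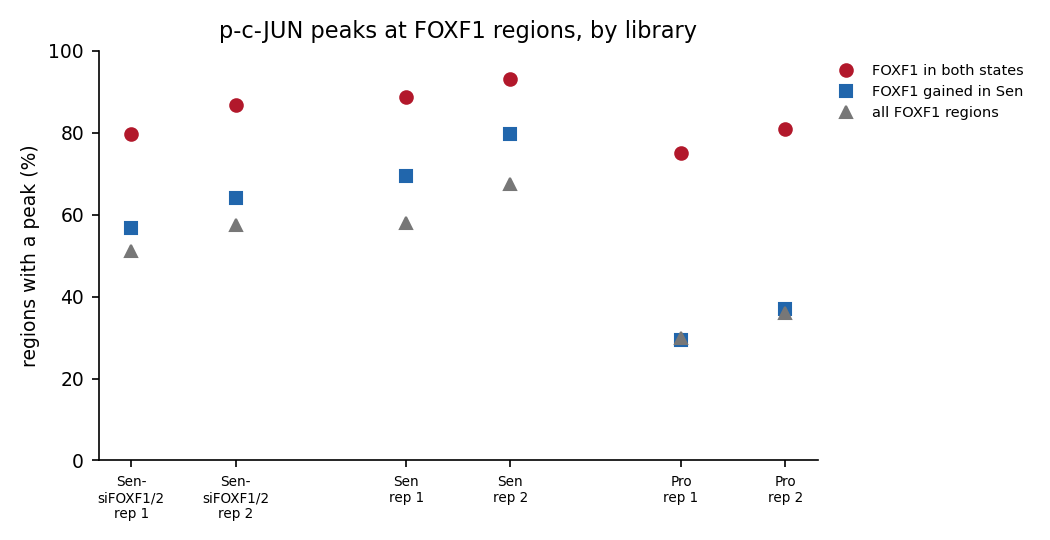
Share of regions with a p-c-JUN peak (y axis, percent) in each of the 6 libraries (x axis), for members (circles), gained FOXF1 regions (squares) and all FOXF1 regions (triangles). Members stand above the other classes in every library, from 75.0% in Pro replicate 1 to 93.2% in Sen replicate 2, and the distance to gained regions is widest in Pro cells.

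After siFOXF1/2, which targets FOXF1 and its relative FOXF2, p-c-JUN covered fewer members. The share was 79.6% and 86.8% in Sen-siFOXF1/2 cells, against 88.7% and 93.2% in Sen cells. The groups did not overlap, with a mean difference of −7.74 ± 4.24 points (SE, n = 2 and 2, exact permutation p = 0.333), and of −8.30 points at an equal 70177 peaks. It was −4.13 points without Sen-siFOXF1/2 replicate 1 and −11.4 points without its replicate 2. Gained regions differed by −14.0 points, and −13.2 at equal length. All FOXF1 regions differed by −8.38 points, and −7.71 at equal length, so the drop at members was near the background. The gap between members and gained regions was 6.27 ± 2.88 points larger after siFOXF1/2 (exact permutation p = 0.333), and this comparison shares its Sen lists with that against Pro cells.

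Site by site, p-c-JUN was lost after siFOXF1/2 (both Sen lists, neither Sen-siFOXF1/2 list) at 83 members (4.05%), against 4.27% of all FOXF1 regions, a share near the background. Gains by the reverse rule numbered 5 (0.244%), against 0.796%. Among the 1775 members with p-c-JUN in both Sen lists, the loss was 4.68%, against 10.1% of gained regions and 7.86% of all FOXF1 regions with the same starting point. The leading loss, chr12:57472327-57472947, had no p-c-JUN peak after siFOXF1/2, against folds of 9.64 and 9.71 in Sen cells, with 4.11 and 6.67 in Pro cells. H3K27ac there had folds of 5.57 and 7.08 after siFOXF1/2, against 6.40 and 6.19 in Sen cells. At chr20:33775345-33776153, p-c-JUN had folds of 6.92 and 8.73 in Sen cells and no peak in the other 4 lists, while FOXF1 had 10.7 and 11.0 in Sen and 9.27 and 14.2 in Pro cells.

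H3K27ac was listed at most members in both states, and in the lists as deposited the difference between the states did not exceed the spread of the libraries. It covered 91.0% and 74.6% of members in Sen replicates 1 and 2, against 92.6% and 91.0% in Pro cells. The ranges met, the difference was −8.99 ± 8.22 points (SE, n = 2 and 2), and the exact permutation p was 0.667. It was −17.2 points without Sen replicate 1, −0.81 points without Sen replicate 2, and −18.2 points over peaks with a −log10 q of 5 or more. Sen replicates 3 and 4, from the later block of records, stood lower at 60.6% and 36.7%, and with all 4 Sen libraries the difference was −26.1 points. Gained regions went the other way, by 4.98 points, or 11.2 at an equal 60862 peaks, where members differed by −6.47 points. The gap between members and gained regions was 9.12 and 10.6 points in Sen and 25.9 and 21.8 points in Pro cells. These do not overlap and differ by −14.0 ± 2.17 points (exact permutation p = 0.333). As for p-c-JUN, the classes were set apart by FOXF1 in the Pro lists alone, and the part of that choice was not tested.

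Both Pro lists held H3K27ac at 1813 members (88.6%), against 56.9% of all FOXF1 regions. In both Sen and both Pro lists, 1446 members (70.6%) had H3K27ac, against 39.4% of all FOXF1 regions. Gains in Sen cells numbered 9 (0.440%), against 4.56%, and losses 58 (2.83%), against 4.22%. Starting points differ here as well: of the 103 members with H3K27ac in neither Pro list, 9 (8.74%) had it in both Sen lists, against 29.4% of such gained regions and 15.1% of such FOXF1 regions. The leading gain, chr15:63771909-63772351, was weak in H3K27ac, with folds of 2.89 and 2.72 after siFOXF1/2 and 2.86 and 2.77 in Sen cells and no H3K27ac peak in Pro cells. A stronger one, chr19:18146074-18146430, had no H3K27ac peak after siFOXF1/2 or in Pro cells and folds of 4.66 and 6.08 in Sen replicates 1 and 2. The leading loss, chr2:40470851-40471277, had no H3K27ac peak in any of the 4 Sen lists, against folds of 4.13 and 4.76 in Pro cells, and no p-c-JUN peak in any list. At chr2:18654620-18655241 H3K27ac was likewise absent from the 4 Sen lists and had folds of 5.80 and 5.22 in Pro cells, while p-c-JUN was present in all 6 lists with folds of 13.3 to 20.6. Other senescent libraries did hold H3K27ac at both losses. After siFOXF1/2 the fold was 3.98 in replicate 2 alone at the first, and 4.80 and 5.09 at the second. After cJUN/JUND knockdown it was 3.97 in replicate 2 alone at the first, and 8.83 in replicate 1 alone at the second.

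**Figure D4:**
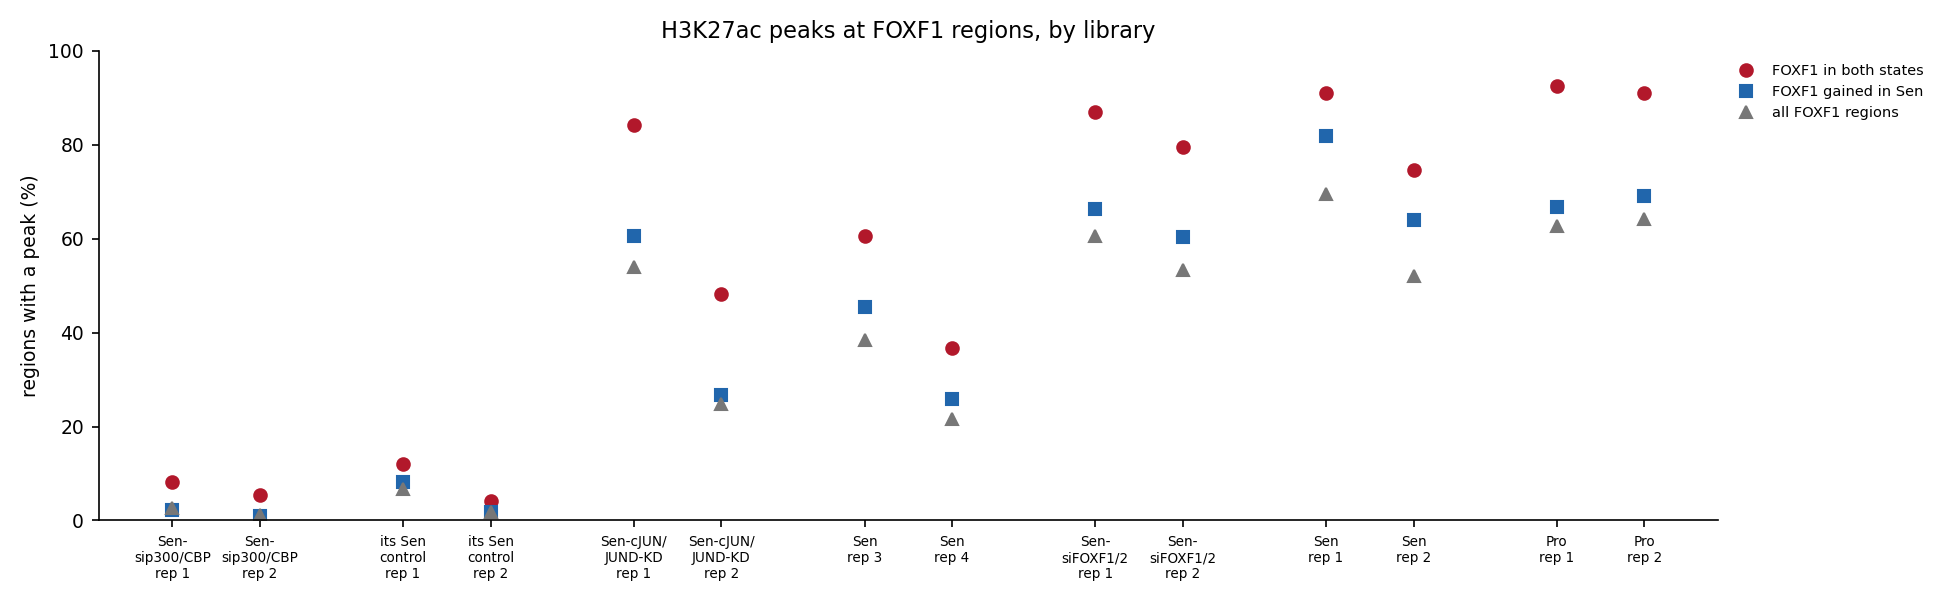
Share of regions with an H3K27ac peak (y axis, percent) in each of the 14 libraries (x axis), for members (circles), gained FOXF1 regions (squares) and all FOXF1 regions (triangles). Members stand above gained regions in every library, with shares of 4.05% to 12.0% in the sip300/CBP libraries and their Sen control and 36.7% to 92.6% in the others.

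Over the 14 H3K27ac libraries, members exceeded gained regions by 13.9 ± 8.18 points (SD, 2.29 to 25.9), in 14 of 14 libraries, with p = 0.000122 in an exact sign-flip permutation test, the smallest p that 14 libraries allow. The difference was 7.51 points when a peak counted only with its summit within 200 bp of the FOXF1 summit, and 14.8 points within the 5 classes of FOXF1 fold. All libraries measure the same regions in the same cell line, so the p covers spread between libraries and not between regions. Members are wider than gained regions, and the part of width was not tested here either.

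After siFOXF1/2, H3K27ac covered 87.1% and 79.5% of members, against 91.0% and 74.6% in Sen replicates 1 and 2. The difference of 0.49 ± 9.02 points (SE, n = 2 and 2, exact permutation p = 1) lay within the spread. It became −2.66 points at equal list length, and 17.6 points against all 4 Sen libraries. With 1 library left out it ran between −7.69 points (without Sen replicate 2) and 8.67 points (without Sen replicate 1). Gained regions differed by −9.68 points, and the gap between the classes was 20.8 and 19.2 points after siFOXF1/2, against 9.12 and 10.6 points in Sen cells. The gap groups did not overlap, with a difference of 10.2 ± 1.08 points (exact permutation p = 0.333).

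H3K27ac was lost after siFOXF1/2 at 46 members (2.25%), against 4.80% of all FOXF1 regions, and gained at 21 (1.03%), against 1.82%. Among the 1502 members with H3K27ac in both Sen lists, 3.06% lost it, against 12.0% of gained regions and 9.90% of all FOXF1 regions. H3K27ac was lost at 9 of 58 members (15.5%) that also lost p-c-JUN, against 19 of 1174 (1.62%) that kept p-c-JUN in both Sen and both Sen-siFOXF1/2 lists. The same shares were 30.5% and 2.60% among gained regions and 28.1% and 2.57% among all FOXF1 regions, so the pattern was not particular to members. No test was made of these shares. A member that lost H3K27ac but kept p-c-JUN was chr4:100632036-100632378. It had no H3K27ac peak after siFOXF1/2, against folds of 5.00 and 5.48 in Sen replicates 1 and 2, and p-c-JUN folds of 16.4 and 14.2 after siFOXF1/2, against 26.3 and 23.6 in Sen cells. The leading loss by rank, chr9:66971018-66971525, belongs to the 170 members and had FOXF1 folds of 19.4 and 19.8 after siFOXF1/2.

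After cJUN/JUND knockdown, H3K27ac covered 84.2% and 48.2% of members, against 60.6% and 36.7% in Sen replicates 3 and 4 of the same block of records. The groups overlapped as deposited, and the difference was 17.6 ± 21.6 points (SE, n = 2 and 2, exact permutation p = 0.667). At an equal 26694 peaks it was 8.18 points, with 51.4% and 45.4% against 43.7% and 36.7%. The groups then did not overlap (exact permutation p = 0.333, the smallest that 2 against 2 allows). All FOXF1 regions differed by 9.36 points, and 2.03 at equal length. The deposited difference at members was −0.44 points without replicate 1 of the knockdown and 35.6 points without its replicate 2. Without Sen replicate 3 and Sen replicate 4 it was 29.5 and 5.64 points. Gains numbered 156 (7.62%), against 5.00% of all FOXF1 regions, and losses 12 (0.586%), against 1.38%. The gap between members and gained regions was 23.6 and 21.5 points after the knockdown, against 15.1 and 10.9 points in Sen replicates 3 and 4, which do not overlap (difference 9.52 ± 2.36 points, exact permutation p = 0.333).

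After sip300/CBP, knockdown of both acetyltransferases, H3K27ac covered 8.11% and 5.42% of members, against 12.0% and 4.05% in its own Sen control. The groups overlapped (difference −1.25 ± 4.18 points, SE, n = 2 and 2, exact permutation p = 1), and with 1 library left out it ran between −5.20 points (without control replicate 2) and 2.71 points (without control replicate 1). Without the 170 members it was −2.58 points. At an equal 1549 peaks the difference was 1.34 points without overlap of the groups (exact permutation p = 0.333). It was 0.24 points, with overlap, when those members were also left out. Gains numbered 28 (1.37%), against 0.266% of all FOXF1 regions, of which 11 remained without the 170 members. Losses numbered 12 (0.586%), against 0.442%.

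The summits of the 3 antibodies lay at different distances within the members. Measured from the FOXF1 summit of Sen replicate 1, the summits of the other Sen and Pro FOXF1 lists lay at a median of 50 to 61 bp, and those of p-c-JUN at 66 to 81 bp. The H3K27ac summits lay at 173 to 263.5 bp in all but the short sip300/CBP lists and their control, where the medians were 97 to 197 bp. A summit within 200 bp was found for 73.6% to 77.5% of members with a p-c-JUN peak, and for 41.0% to 54.2% of those with an H3K27ac peak in the longer lists. The p-c-JUN summits were closer at members than at gained regions, whose medians were 85.5 to 96 bp. The difference averaged −19.1 bp and was negative in 6 of 6 libraries (exact sign-flip permutation p = 0.0312). H3K27ac summits were on average 29.8 bp farther at members, in 11 of 14 libraries (exact sign-flip permutation p = 0.0100). Both distance tests were added after the values were seen, and a wider region admits peaks that lie farther away, a part that was not tested.

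**Figure D5:**
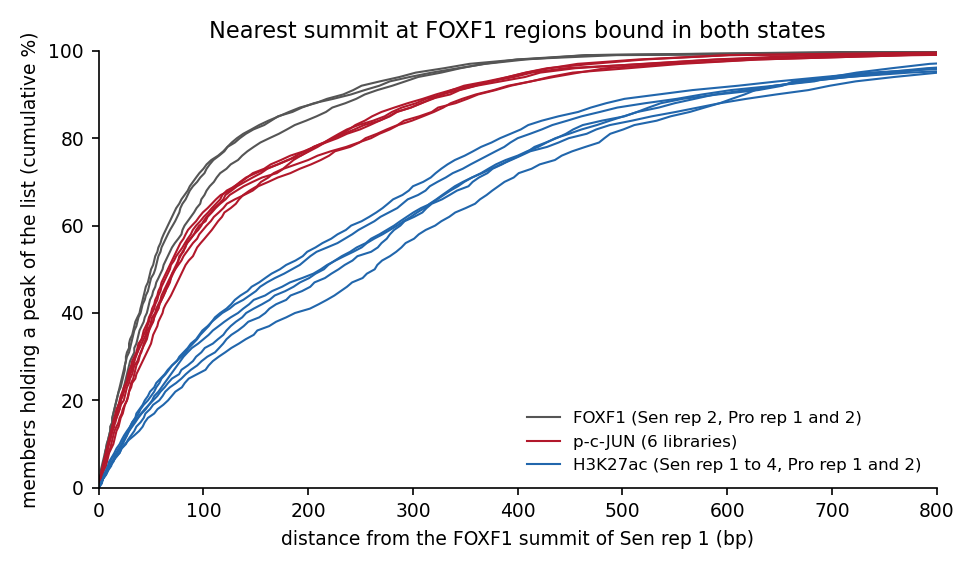
Cumulative share of the members that hold a peak of a list (y axis, percent) by the distance of its nearest summit from the FOXF1 summit of Sen replicate 1 (x axis, bp), 1 line per library. The FOXF1 lines (grey) rise fastest, the 6 p-c-JUN lines (red) follow with 73.6% to 77.5% within 200 bp, and the H3K27ac lines of Sen and Pro cells (blue) reach 41.0% to 54.2% there.

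H3K27ac peaks at members were wider than the median of their lists. Their median width in Sen replicate 1 was 1062.5 bp, against 527 bp in the whole list, and in Pro replicate 1 it was 1041 bp, against 553 bp. The excess was smaller in Sen replicate 2 (687 against 432 bp) and Sen replicate 4 (479 against 391 bp). The widest peak at each member was taken, and a wide peak overlaps any region more readily, a part that was not tested. For the H3K27ac folds, the highest peak at each member was taken. Their median exceeded that of the list by less than p-c-JUN did, at 4.28 and 3.97 in Sen replicates 1 and 2 and 4.44 and 4.22 in Pro cells, against 3.82 and 3.81, and 3.89 and 3.78, in the whole lists. By rank within the list, the H3K27ac median percentile was 83.0 and 74.8 in these Sen lists and 81.5 and 81.2 in Pro cells. For p-c-JUN it was 81.4 and 83.7 in Sen and 76.4 and 80.4 in Pro cells.

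Taking both marks together, 1035 members (50.6%) had p-c-JUN and H3K27ac in both Sen and both Pro lists, against 16.8% of all FOXF1 regions. Members free of both were rare. No p-c-JUN peak in 6 lists and no H3K27ac peak in the Sen and Pro lists was found at 2 members (0.0977%), against 11.3%. They were chr11:67137456-67137945, with FOXF1 folds of 6.13 and 10.2 in Sen and 8.21 and 8.60 in Pro cells, and chr13:98194625-98195284, with 6.40 and 9.08 in Sen and 6.61 and 5.63 in Pro cells. Of the 55 members without p-c-JUN in any list, 25 (45.5%) had H3K27ac in all 4 Sen and Pro lists, against 18.0% of such gained regions and 13.9% of all FOXF1 regions without p-c-JUN.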

How the data were processed

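CUT&RUN libraries of IMR-90 ER:Ras cells were analysed from the 28 deposited narrowPeak lists, 1 per library. Per the submitters' processing notes, the tools were MACS2 3.0.0 and deepTools 3.1.1 beside Bowtie2 2.3.4.1 and SAMtools 1.9, on hg19. Parameters, any control library and any use of the yeast spike-in are not given in the sources used here. Each deposited peak carries a display score, a fold enrichment ratio over local background, −log10 p, −log10 q and a summit offset, as the authors' caller wrote them. Fold and −log10 q served only to describe, rank or limit peaks within a list. The FOXF1 lists after either knockdown carry other peak name prefixes than the FOXF1 lists of Sen and Pro cells.

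Peaks off chromosomes 1 to 22 and X were left out (475, 0.0423%). Shares of regions with a peak (1 bp overlap) were compared over libraries by exact two-sided permutation tests, and members with gained regions by exact sign flips within libraries (Python 3.11.15, numpy 2.4.6, pandas 2.3.3). Background percentages are over all 45464 FOXF1 regions. Overlap code was tested on simulated lists. Regions were ranked in each list by −log10 q, their poorest rank over the lists concerned was taken, and the text draws its examples from the 10 or 5 members per class that this puts highest.

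Members, lists and tests were chosen with earlier results of these data known. The list without the 170 knockdown-list members, comparisons of gaps, distance tests and limits of 5000 to 20000 peaks were added after seeing the data. Other settings tried were a −log10 q of 5 or more, 50% overlap, equal list lengths, summits within 200 bp, each replicate left out and a replicate block. Gene names, marker genes and motifs were not analysed here.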

Additional observations from a re-analysis of the deposited data

How the results depend on the processing

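The p-c-JUN difference between Sen and Pro cells turned round at equal list length (−14.1 points) and at the best 5000, 10000, 15000 and 20000 peaks (−11.0, −12.8, −13.5 and −13.6), and was 10.1 to 15.9 with a replicate left out. The p-c-JUN difference after siFOXF1/2 was −11.4 to −4.13 with a replicate left out. The H3K27ac difference between Sen and Pro cells was −17.2 to −0.81 with a replicate left out, −18.2 at a −log10 q of 5 or more and −26.1 with all 4 Sen libraries. The H3K27ac difference after siFOXF1/2 was 1.03 at a −log10 q of 5 or more, 2.05 at 50% overlap, 1.03 with summits within 200 bp, 17.6 with all 4 Sen libraries, −2.66 at equal length and −7.69 to 8.67 with a replicate left out (−3.30 without its replicate 1 and −7.69 without Sen replicate 2). The sip300/CBP difference was 1.20 at a −log10 q of 5 or more, 1.34 at equal length, −2.58 without the knockdown-list members, 0.24 with both, −0.73 at 50% overlap, and −5.20 to 2.71 with a replicate left out (0.0977 without its replicate 2 and 2.71 without replicate 1 of its control). The H3K27ac difference after cJUN/JUND knockdown was −0.44 to 35.6 with a replicate left out, lowest without knockdown replicate 1. Members numbered 1007 at a −log10 q of 5 or more, 773 at equal length and 2081 to 5161 with a replicate left out, highest without Pro replicate 1. FOXF1 after siFOXF1/2 was at 2.34% of members at a −log10 q of 5 or more, against 2.61% as deposited, and after cJUN/JUND knockdown at 3.44% there and 4.84% at equal length, against 5.67%. The p-c-JUN excess of members over gained regions was 24.5 to 30.9 with a library left out, each time with exact permutation p = 0.0625, the smallest that 5 libraries allow. Other settings kept the direction and side of the threshold, and apart from equal list length by construction the causes were not tested.

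With the replicate number as a block, the differences were unchanged at 13.0 and −7.74 points for p-c-JUN and −8.99, 0.49 and −1.25 for H3K27ac, with exact permutation p of 0.5 or 1, where 2 pairs cannot go below 0.5. Deviations of same-numbered libraries correlated at −0.0077 to 0.087, so the numbers were not taken as pairs. No paired analysis was possible because no numbers are shared for cJUN/JUND knockdown against Sen replicates 3 and 4.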
